A study of Arabidopsis thaliana with 12 samples.

Results

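The genes described here are the leucine-rich repeat (LRR) receptor kinases of the Arabidopsis leaf. They were taken as every gene whose description in the deposited table holds both the words leucine-rich (with or without the hyphen) and kinase, and whose transcript level was at least 1 TPM (a length-scaled share of all transcripts with a fixed total) in at least 4 of the 12 libraries. Of 183 genes with such a description, 114 passed this minimum and 69 did not, 26 of which were at 0 in every library. AT4G39400 and AT2G26330 were left out by name, which leaves 112 genes out of 32833 in the table. Of the 112, 97 were at 1 TPM or more in all 12 libraries. AT1G66830 (0.32 to 1.29 TPM over the libraries) and AT5G59650 (0.48 to 1.4 TPM) lay just inside the minimum with 4 libraries each, and PXL1 (0.29 to 1.57 TPM), AT1G51820 (0.08 to 6.71 TPM) and AT5G48740 (0.48 to 1.33 TPM) lay just outside it with 3. A gene name was paired with the locus code for 33 members, and the other 79 are given by locus code. The label was checked against the RefSeq notes of the TAIR10.1 annotation, where 106 of the 112 carry an LRR term and 111 a kinase domain term. AT1G07650 carries no kinase domain term there.

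LRR receptor kinases span the plasma membrane, with a ligand-binding LRR ectodomain outside the cell and a kinase domain inside it. They are the largest group of plant receptor-like kinases and perceive peptide hormones, steroid hormones, fragments of microbes and signals released by damaged cells. Many long ectodomain receptors bind the ligand together with a short ectodomain co-receptor of the SERK group, and the paired kinase domains then phosphorylate cytoplasmic kinases. In leaves the family is known from pattern-triggered immunity, stomatal patterning and closure, vascular development and growth.

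RNA was sequenced from leaves of wild-type Col-0 plants about 4 weeks old. All plants were raised in soil at a relative humidity (RH) of 60%, 22 °C and 12 h of light, and then kept for 1 h in a chamber at low (40 to 45% RH), moderate (55 to 60% RH) or high (95% RH) humidity, with 4 biological replicates each. The moderate setting is close to the growth condition and serves as the control. Whether single plants or pools made up a replicate is not stated in the labels, and a chamber cannot be told apart from its humidity, so p-values measure only the spread between these samples.

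The libraries carried leaf transcripts. The leaf markers RBCS1A and LHCB1.3 were abundant in all 12, CASP1 of roots and WUS of shoot meristems were at 0 throughout, and WER, PYK10, AP3 and STM did not exceed 0.51 TPM. AG of flowers was present at a low level, with means of 1.62, 2.74 and 0.857 TPM at low, moderate and high humidity and at most 3.5 TPM. Sequencing depth is unknown because TPM keeps none. Within a condition, correlations of log2(TPM + 1) between libraries lay between 0.960 and 0.985. Transcripts of 91 photosynthesis genes took 23.5 to 23.8% of TPM at moderate humidity, 26.6 to 28.3% at high humidity and 29.5 to 31.0% in 3 low humidity libraries, while low humidity replicate 1 stood apart at 25.4%. TPM has a fixed total, so its values are relative to all other transcripts. The median log2 fold change of all 17368 genes tested was -0.22 at high against moderate humidity, -0.18 at low against moderate and -0.06 at high against low. After scaling each library by its median ratio to a common reference (median-of-ratios scaling) these medians were -0.02, -0.01 and -0.02. The part of the photosynthetic share in these shifts was not tested. Counts of calls are therefore given on both scales. Among markers of leaf cell types, FAMA of guard cells went from a mean of 14.6 TPM at moderate to 6.97 TPM at high humidity, and SUC2 of phloem companion cells from 125 to 164 TPM, while ATHB8, also vascular, went from 7.22 to 6.58 TPM and MYB60, also of guard cells, from 19.7 to 14.7 TPM. The epidermal markers FDH and ATML1 went from 228 to 172 TPM and from 33.6 to 31.9 TPM. Their part in the changes of the receptor kinases was not tested, and in leaf tissue fewer cells of a type and less RNA per cell cannot be told apart.

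The receptor kinases covered a wide range of levels. Mean TPM over the 12 libraries ran from 0.794 to 130 with a median of 6.88, with 45 genes under 5 TPM, 36 from 5 to 20, 23 from 20 to 50 and 8 at 50 or more. The 8 most abundant, FEI1, AT1G51805, AT1G35710, SOBIR1, AT1G29720, AT3G03770, AT4G08850 and RLK7, made up 37.3% of the summed level. Summed over the 112 genes, the level was 1627 ± 304 TPM at low, 1859 ± 167 at moderate and 2104 ± 160 at high humidity (SD, n = 4 each), with ranges of 1392 to 2068, 1718 to 2070 and 1990 to 2340 TPM that overlap between neighbouring conditions.

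High against moderate humidity asks which receptor kinase transcripts differ after 1 h of nearly saturated air. Of the 112 genes, 16 rose and 27 fell, and 69 did not pass the test. The largest rises, of LRR1, AT1G53430 and BARK1, exceeded 3-fold in TPM, and the largest fall on the log2 scale was that of AT4G34220, from a mean of 32.1 to 13.9 TPM. By limma with Benjamini-Hochberg adjustment over all 17368 genes at an adjusted p of 0.05, members that rose made up 14.3% of the set against 11.4% of all genes, and members that fell 24.1% against 34.2%. After median-of-ratios scaling 29 members rose (25.9% against 18.5% of all genes) and 15 fell (13.4% against 15% of all genes). All 16 that rose before scaling also rose after it, and 15 of the 27 that fell did so on both scales. The median log2 fold change of the members was -0.12 against -0.22 over all genes, and 0.08 against -0.02 after scaling. A change of at least 2-fold on the log2(TPM + 1) scale was reached by 8 of the 112 members that rose and 1 that fell. Over all 17368 genes 752 rose and 593 fell by at least as much. The 4 high and 4 moderate libraries did not overlap for 15 members that were higher (10.9% of all genes) and 29 that were lower (34.9% of all genes). Counts of calls in the gene groups below are to be read against the shares of all genes. These were 11.4% higher and 34.2% lower as deposited, and 18.5% and 15% after scaling.

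**Figure D1:**
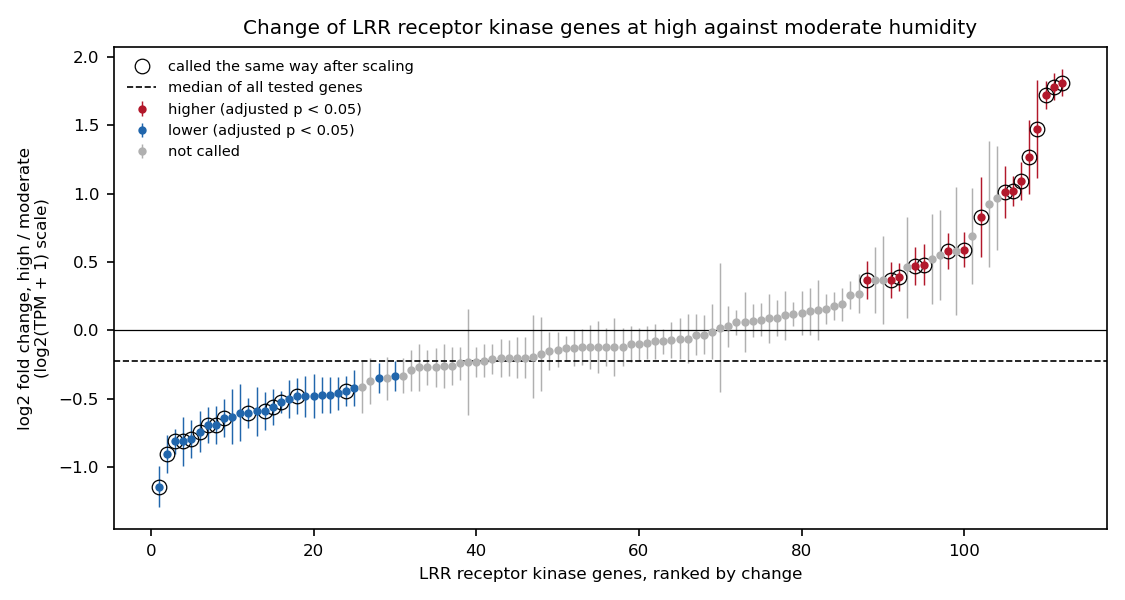
Log2 fold change (log2(TPM + 1) scale, bars are SE) of the 112 LRR receptor kinase genes at high against moderate humidity, ranked along the x axis; red and blue points passed limma's adjusted p of 0.05 and rings mark genes called the same way after scaling. The 16 genes that rose reach 1.81 and the 27 that fell reach -1.14, and the dashed line is the median of all tested genes at -0.22.

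Of 2 members of the TMK group, whose kinases act in auxin signalling and growth, 1 rose as deposited and both rose after scaling. BARK1 (AT3G23750), named for its association with the co-receptor BAK1, was at 22.53, 26.77, 23.59 and 23.71 TPM in the moderate libraries and at 88.08, 73.35, 90.85 and 74.89 TPM in the high ones. Its low humidity libraries read 22.86, 19.84, 18.43 and 20.58 TPM, so the 4 high libraries stood alone. The log2 fold change of BARK1 against moderate was 1.72 (SE 0.10, limma adjusted p = 5.6e-08). The other, AT2G01820, had a mean of 36.6 TPM at moderate and 38.2 TPM at high humidity and did not pass the test as deposited (log2 fold change 0.06, limma adjusted p = 0.594), but did after scaling (adjusted p = 0.013).

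A list of 9 kinases of LRR subfamily III, 5 of them members, included the largest change of the set. The list was drawn up by hand and is not the whole subfamily, so its counts do not describe the subfamily. LRR1 (AT5G16590) was at 20.42, 19.97, 19.43 and 21.27 TPM at moderate humidity, at 76.26, 72.67, 84.72 and 61.72 TPM at high humidity and at 17.74, 15.83, 17.5 and 17.24 TPM at low humidity, which sets the high libraries apart. High against moderate gave a log2 fold change of 1.81 (SE 0.10, limma adjusted p = 2.4e-08). AT3G02880, the gene most similar to LRR1, was at 27.22, 18.39, 17.57 and 16.61 TPM at moderate and at 58.64, 30.69, 37.82 and 39.41 TPM at high humidity (log2 fold change 1.01 with SE 0.19, limma adjusted p = 0.0011). Both genes thus separated the high libraries from all others, and the spread within a condition was wider for AT3G02880. GHR1 (AT4G20940), which is needed for stomatal closure, was at 2.96, 3.49, 2.69 and 3.03 TPM at moderate and at 1.47, 2.06, 1.91 and 2.27 TPM at high humidity. It fell by 0.47 on the log2 scale (limma adjusted p = 0.013) but did not pass after scaling (adjusted p = 0.083). Of this list 2 members rose and 1 fell as deposited, and 2 rose and 0 fell after scaling.

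Receptors of growth peptides, which bind short secreted peptides such as PSK and CEP, gave 2 rises and 1 fall among 6 members, and 4 rises and 0 falls after scaling. CEPR2 (AT1G72180), a receptor of C-terminally encoded peptides that report nitrogen demand, was at 29.21, 22.61, 23.78 and 17.52 TPM at moderate and at 86.1, 51.54, 64.61 and 62.34 TPM at high humidity (log2 fold change 1.47 with SE 0.36, limma adjusted p = 0.0074). Its low humidity libraries were at 16.78, 21.47, 11.37 and 49.56 TPM, so replicate 4 came close to the lowest high humidity library. AT4G26540 had means of 29.3 TPM at moderate and 37.7 TPM at high humidity (log2 fold change 0.37, limma adjusted p = 0.044), and its call was lost in 12 of 21 alternative analyses, with an adjusted p of up to 0.131. AT1G34110 fell by 0.46 (limma adjusted p = 0.0077) and did not pass after scaling (adjusted p = 0.071). SKM2 (AT5G56040) did not pass as deposited (log2 fold change 0.19, limma adjusted p = 0.204) but did after scaling (0.41, limma adjusted p = 0.012). PSY1R (AT1G72300) likewise passed only after scaling (0.07 as deposited and 0.30 scaled, limma adjusted p = 0.642 and 0.022). CEPR1 (AT5G49660) passed on neither scale (-0.08 as deposited, limma adjusted p = 0.471). The PSK receptors PSKR1 and PSKR2 are no members by the rule and passed on neither scale (both -0.15 as deposited, limma adjusted p = 0.594 and 0.287).

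FEI1 and FEI2 act in cell wall synthesis, as known from roots. FEI1 (AT1G31420), the most abundant member, was at 118.15, 128.75, 130.14 and 130.76 TPM at moderate and at 158.34, 173.22, 178.5 and 156.43 TPM at high humidity, with no overlap (log2 fold change 0.39 with SE 0.10, limma adjusted p = 0.0068). FEI2 (AT2G35620) had log2 fold changes of -0.08 as deposited (limma adjusted p = 0.619) and 0.14 after scaling (adjusted p = 0.280). A malectin term in the RefSeq note marks another group, which does not include IOS1 and AT1G51805, the members on the list of subfamily I malectin-like kinases. Of 8 members with a malectin term in their RefSeq note 2 rose and 0 fell, and 3 rose and 0 fell after scaling. Of all genes 11.4% rose and 34.2% fell, and 18.5% and 15% after scaling. The 2 malectin members that rose as deposited are AT1G53430 and LIK1, described below. AT1G51805, an abundant kinase without that term in its note, was at 105.75, 105.99, 113.5 and 138.14 TPM at moderate and at 185.44, 155.58, 157.41 and 144.58 TPM at high humidity (log2 fold change 0.47 with SE 0.14, limma adjusted p = 0.013).

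AT1G53430, known by locus code, had the next largest rise after LRR1. It read 22.27, 17.77, 18.35 and 22.0 TPM at moderate, 73.27, 66.0, 78.5 and 67.36 TPM at high and 16.26, 15.65, 12.98 and 14.35 TPM at low humidity. The log2 fold change of AT1G53430 against moderate was 1.78 (SE 0.10, limma adjusted p = 6.2e-08), and the high libraries lay far above all others. Members known by locus code that also rose at least 2-fold were AT3G47570 (mean 3.46 to 9.84 TPM, log2 fold change 1.27), AT1G68400 (1.09) and AT2G16250 (1.02), with limma adjusted p of 0.0027, 5.8e-05 and 1.1e-05. AT1G07650 (0.59) and AT4G37250 (0.58) rose less, with limma adjusted p of 0.0039 and 0.0040. The 12 genes with the largest rises among those whose high and moderate libraries did not overlap, all named so far, passed in every alternative that tested them. These were all 21 for 10 of the genes and 20 for AT2G16250 and AT4G37250, which drop out at a minimum of 5 TPM in 4 libraries. LIK1 (AT3G14840), a kinase that binds the chitin co-receptor CERK1, rose by 0.83 (limma adjusted p = 0.034), but its call was lost without any 1 of 4 libraries (moderate replicates 1 and 3, high replicates 1 and 4), with an adjusted p of up to 0.093. AT5G43020 (0.48, limma adjusted p = 0.021) and SKM1 (AT2G25790, 0.37, limma adjusted p = 0.029), a receptor of a CLE peptide in pollen, lost their calls without single libraries too, with adjusted p of up to 0.065 and 0.078. For AT5G43020 these were moderate replicate 3 and high replicates 1 and 4, and for SKM1 moderate replicates 1 and 3 and high replicates 1 and 3.

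**Figure D2:**
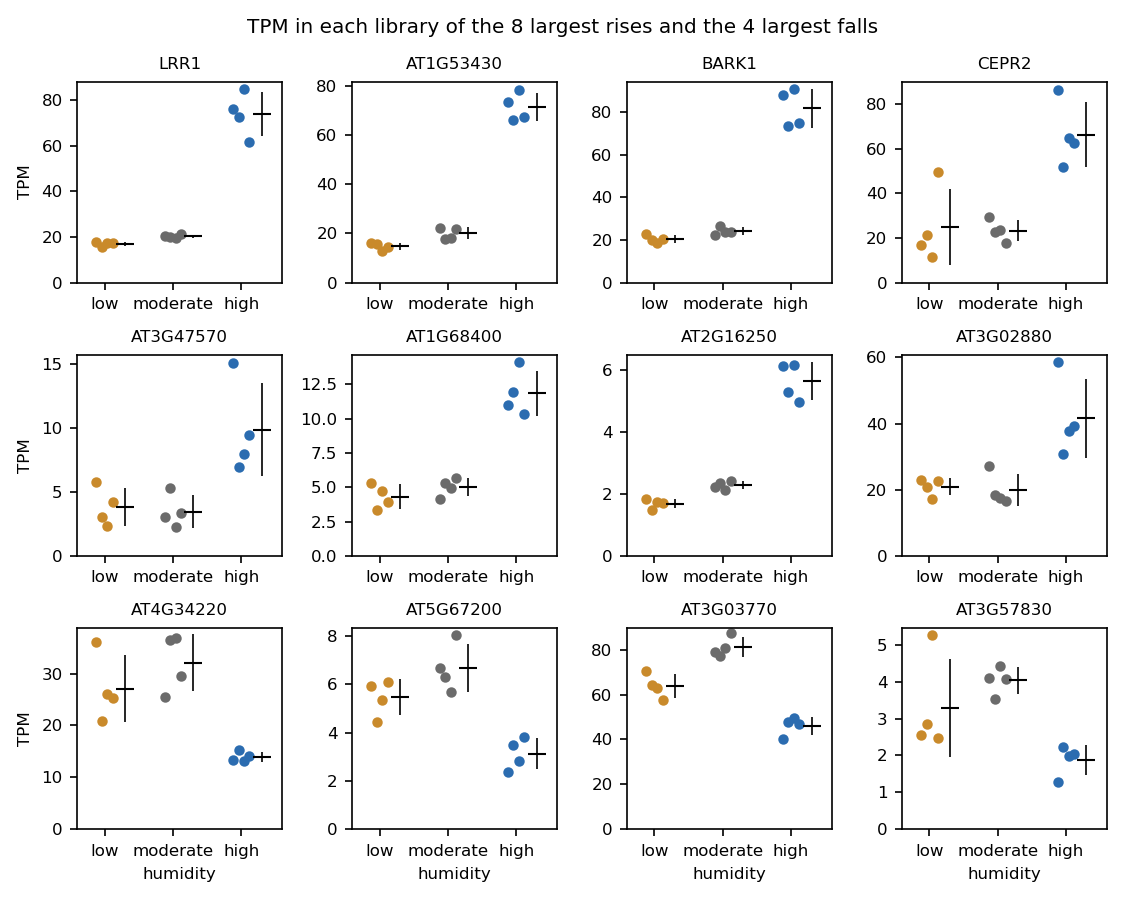
TPM in each of the 12 libraries (points) with the mean and SD of 4 (black) for the 8 receptor kinases with the largest rises and the 4 with the largest falls at high against moderate humidity. The high libraries of LRR1, AT1G53430 and BARK1 lie at 61.72 TPM or more while their low and moderate libraries stay at 26.77 TPM or less, and AT4G34220 at high humidity stays at 15.27 TPM or less.

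Receptors of microbial patterns and danger peptides, the first layer of leaf immunity, were not called higher as deposited. Of 6 members on this list 0 rose and 1 fell, and after scaling 2 rose and 1 fell. The gene that fell was AT1G74360, at 3.48, 3.61, 4.11 and 4.13 TPM at moderate and 2.24, 2.58, 2.33 and 1.7 TPM at high humidity (log2 fold change -0.59, limma adjusted p = 0.0048). FLS2 (AT5G46330), the flagellin receptor, was at 1.67, 2.59, 1.15 and 1.33 TPM at moderate and at 6.86, 1.8, 1.66 and 2.81 TPM at high humidity. Its log2 fold change of 0.55 did not pass (SE 0.33, limma adjusted p = 0.182). High replicate 1 stood apart from the other 3, and the log2 fold change was 0.21 without that library (adjusted p = 0.519). AT5G25930 had a larger difference (log2 fold change 0.97 with SE 0.38) that missed the threshold as deposited (limma adjusted p = 0.055) and passed after scaling (adjusted p = 0.025). AT5G49760 also rose only after scaling (0.14 as deposited and 0.37 scaled, limma adjusted p = 0.510 and 0.041). EFR (AT5G20480), on the list but no member by the rule, did the same (0.39 and 0.53, limma adjusted p = 0.106 and 0.044). Its means were 1.46 TPM at moderate and 2.27 TPM at high humidity. RLK7 (AT1G09970), the receptor of a PIP peptide, spanned 34.62 to 65.07 TPM at moderate and 40.97 to 91.24 TPM at high humidity (log2 fold change 0.46, limma adjusted p = 0.325). AT4G08850 likewise overlapped between conditions (0.52, limma adjusted p = 0.217).

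The BIR kinases and SOBIR1 are partners of the SERK co-receptors. BIR2 keeps BAK1 from its receptors at rest, and SOBIR1 is the kinase that receptor-like proteins without a kinase domain rely on. Of the 4 members on this list 0 rose and 0 fell by limma as deposited, and 3 rose after scaling. SOBIR1 (AT2G31880) was at 58.4, 116.34, 49.64 and 58.4 TPM at moderate and at 166.66, 102.94, 75.69 and 103.85 TPM at high humidity (log2 fold change 0.69, limma adjusted p = 0.127, and 0.036 after scaling). BIR2 (AT3G28450) had a log2 fold change of 0.13 (limma adjusted p = 0.523, and 0.049 after scaling). AT1G27190 and AT5G63710 had log2 fold changes of 0.08 and -0.20 (limma adjusted p = 0.633 and 0.219), and the latter was 0.02 after scaling. The SERK genes themselves are not described with both words in the table and are no members. By the same test 0 of the 5 passed as deposited, with SERK4 closest (log2 fold change 0.64, limma adjusted p = 0.097), and SERK4 and BAK1 passed after scaling. SERK1, SERK2 and SERK5 had log2 fold changes of -0.03, -0.07 and 0.13 as deposited.

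Receptors of CLE peptides and of meristem or vascular signals held no member that passed the test as deposited. Of 7 members 0 rose and 0 fell as deposited, and 1 rose after scaling. PXY (AT5G61480), the receptor that keeps the vascular cambium dividing, was at 4.74, 5.29, 4.68 and 5.42 TPM at moderate and at 6.03, 5.94, 5.87 and 7.0 TPM at high humidity. The groups did not overlap, but the log2 fold change of 0.26 missed the threshold (limma adjusted p = 0.051) and passed after scaling (adjusted p = 8.6e-04). BAM1 (AT5G65700) had a log2 fold change of -0.23 (limma adjusted p = 0.093), and HAE (AT4G28490), the receptor of floral organ abscission, one of -0.12 as deposited (limma adjusted p = 0.627) and 0.10 after scaling. The 3 members on the list of NIK and CIK co-receptors did not pass on either scale, AT2G23950 among them (-0.29). SUB (AT1G11130), which shapes floral organs and root hair patterning, fell by 0.47 (limma adjusted p = 0.011) and did not pass after scaling (adjusted p = 0.115).

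Of the 27 genes that fell, 23 were among the 73 members on none of the role lists, which is 31.5% of them and close to the 34.2% of all genes. In the same 73, 9 rose (12.3%, against 11.4% of all genes), and after scaling 14 fell and 13 rose (19.2% and 17.8%, against 15% and 18.5%). Of the 39 members on a list 4 fell and 7 rose (10.3% and 17.9%), and after scaling 1 fell and 16 rose (2.56% and 41.0%). The difference between members on and off the lists was not tested. AT4G34220 was at 25.56, 36.37, 36.85 and 29.49 TPM at moderate, at 13.23, 15.27, 13.12 and 14.01 TPM at high and at 36.14, 20.76, 25.97 and 25.36 TPM at low humidity. Against moderate it fell by 1.14 on the log2 scale (SE 0.15, limma adjusted p = 1.1e-04). AT3G03770, the most abundant gene that fell, was at 79.03, 77.2, 80.83 and 87.39 TPM at moderate and at 40.23, 47.58, 49.53 and 46.82 TPM at high humidity (log2 fold change -0.81 with SE 0.09, limma adjusted p = 1.9e-05). In both genes the high libraries lay below every other library. AT5G67200 fell by 0.90, AT3G57830 by 0.81, AT3G47580 by 0.79, AT2G33170 by 0.69, AT5G59660 by 0.69 and AT2G24230 by 0.60, with limma adjusted p from 3.2e-04 to 0.0034. MEE62 (AT5G45800), known from a mutant arrested in embryo development, went from 24.0 to 14.2 TPM (log2 fold change -0.74, limma adjusted p = 0.0019). PXC3 (AT2G41820), named for its correlation with PXY, fell by 0.64 (limma adjusted p = 0.0029). All 10 of these passed after scaling. AT3G46370 fell by 0.63 (limma adjusted p = 0.019) and did not pass after scaling (adjusted p = 0.058), nor without moderate replicate 2, moderate replicate 3 or high replicate 1 (adjusted p of up to 0.059).

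**Figure D3:**
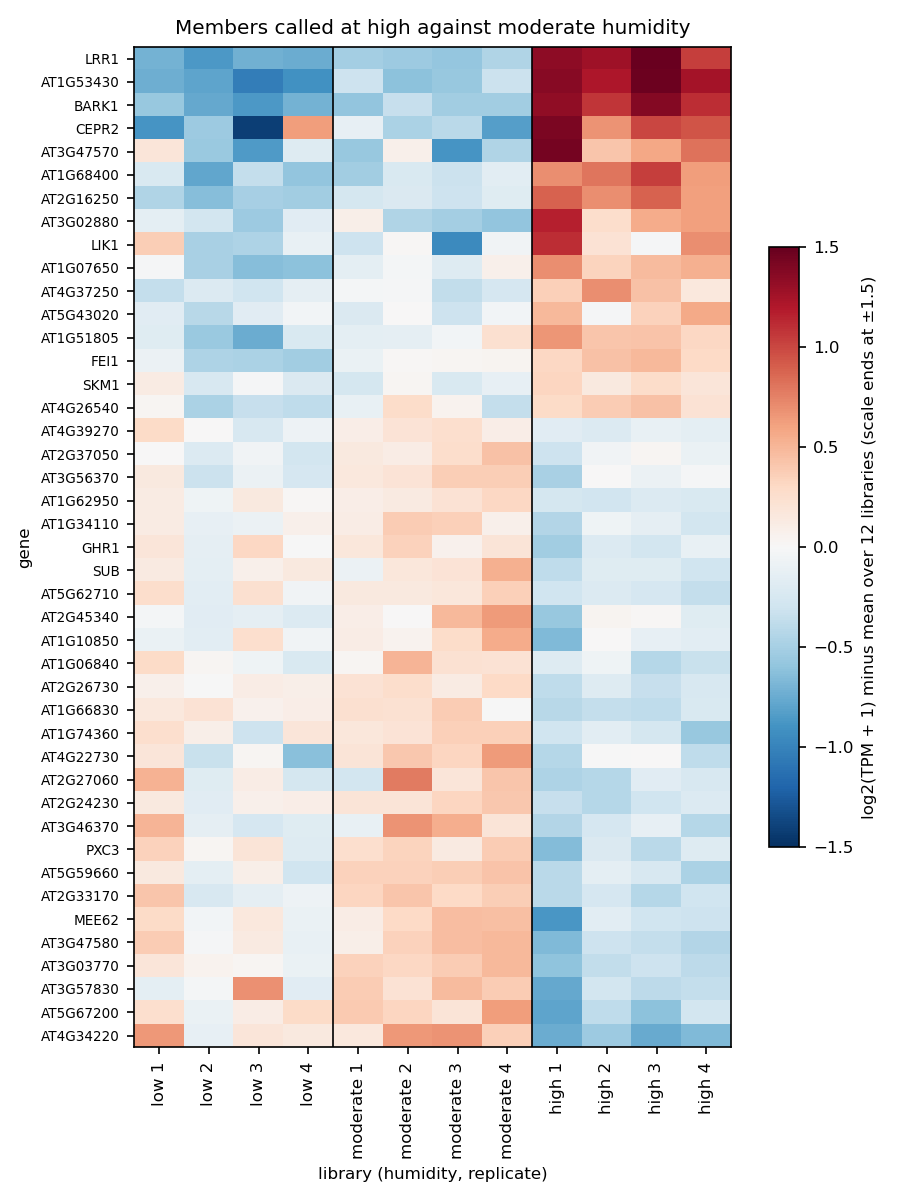
Heat map of the 43 receptor kinases called at high against moderate humidity (rows, ranked by change) in the 12 libraries (columns), as log2(TPM + 1) minus the gene's mean over the libraries. In 13 of the top 16 rows (higher) and 13 of the bottom 27 rows (lower) every high library lies beyond the 8 others, and low replicate 1 is higher than the other low libraries in many rows.

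Low against moderate humidity asks whether drier air moved the same family. No member passed, with 0 higher and 0 lower by limma both as deposited and after scaling (background 0.443% higher and 0.23% lower of all genes, 0.702% and 0.0345% after scaling). An unadjusted limma p under 0.05 was held by 31 of the 112 members as deposited, against 5077 of all 17368 genes. After scaling these numbers were 9 and 2400. The log2 fold change at low against moderate humidity was below 0 for 95 of 112 genes as deposited and for 66 after scaling. Its median was -0.21 against -0.18 over all genes as deposited, and -0.05 against -0.01 after scaling. The smallest adjusted p was that of SKM2, at 13.03, 11.6, 15.06 and 13.04 TPM at moderate and at 10.41, 8.39, 9.53 and 7.03 TPM at low humidity. The groups of SKM2 did not overlap, with a log2 fold change of -0.53 (SE 0.12, limma adjusted p = 0.057). The outcome depended on low replicate 1, which held the highest of the 4 low values for 85 of the 112 genes, and without it 36 members were lower (32.1% of the set against 30.0% of all genes) and 0 higher. With that library left out and the others scaled, 0 members were lower and 1 was higher. Over all 17368 genes 100 (0.576%) were lower and 617 higher in that setting.

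High against low humidity gave 22 members higher and 10 lower, against 12.4% and 11.3% of all genes, or 19.6% and 8.93% of the set. After scaling 29 were higher and 11 lower, against 15.1% and 11.4% of all genes. Without high replicate 1 the number lower was 6. The high libraries serve in both this comparison and the one against moderate humidity, so both sets of values are given side by side and not as support for each other. AT1G53430, LRR1, BARK1 and CEPR2 had the largest rises, with log2 fold changes of 2.19, 2.04, 1.95 and 1.56 against low and 1.78, 1.81, 1.72 and 1.47 against moderate humidity, and limma adjusted p against low of 7.7e-09, 7.3e-09, 1.3e-08 and 0.0081. AT4G34220, AT5G67200, AT3G47580 and AT3G57830 had the largest falls, by 0.89, 0.65, 0.54 and 0.54, with limma adjusted p of 8.0e-04, 0.0041, 0.0097 and 0.048. The call of AT3G57830 was lost after scaling and in 13 other alternatives, with an adjusted p of up to 0.145. Members called against low but not against moderate humidity as deposited included SKM2 (0.72, limma adjusted p = 5.2e-04) and PXY (0.46, limma adjusted p = 0.0044), whose means lay in the order low, moderate, high.

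Of the 16 members higher at high against moderate humidity, all 16 also had a mean above that of low humidity, 14 were called against low, and 13 had every high library above the 8 others. Of the 27 that were lower, 26 had a mean below that of low humidity, 10 were called against low and 13 had every high library below the 8 others. The same high libraries enter both comparisons, and no share over all called genes stands beside these counts. They are therefore not read as a trait of the receptor kinases. Over the whole set the mean was highest at high humidity for 42 genes (37.5%, against 24.2% of all genes), at moderate for 65 (58.0% against 62.4%) and at low for 5 (4.46% against 13.4%). The mean was lowest at low humidity for 55 members (49.1% against 32.9% of all genes) and lowest at high humidity for 45 (40.2% against 55.7%).

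Many of these genes lie next to, or are most similar to, another member. Reads shared between such copies may be split in ways the sources used here do not state, so values of close copies are uncertain. In the order of the TAIR10.1 annotation 18 members form 7 arrays with at most 1 other gene between neighbours. Of these members 3 rose, 3 fell and 12 did not pass at high against moderate humidity, or 4, 3 and 11 after scaling. Of all genes 11.4% rose and 34.2% fell, and 18.5% and 15% after scaling. AT3G47570 and AT3G47580 went opposite ways, from 3.46 to 9.84 TPM and from 7.24 to 3.76 TPM, with a difference in log2 fold change of 2.06. AT1G53430 and AT1G53440 differed by 1.90, as AT1G53440 went from 9.30 to 8.38 TPM (log2 fold change -0.12, limma adjusted p = 0.656). By an exact two-sided permutation test of each of the 11 adjacent pairs, both differences had p = 0.0286, the smallest that 4 against 4 libraries allow, and an adjusted p of 0.105. With that smallest p, a pair could not reach an adjusted p under 0.05 on its own values, however large its difference. For 25 pairs of members that RefSeq notes name as each other's best match, 1 pair had both genes higher (LRR1 and AT3G02880), 1 had one higher and one lower (AT2G16250, 1.02, and AT4G39270, -0.33, which did not pass after scaling), 3 had one higher and one not called, 12 had one lower and one not called, and 8 had neither called. After scaling 3 pairs had both genes higher, 4 had one higher and one not called, 6 had one lower and one not called, and 12 had neither called. No share over pairs of other genes stands beside these counts, so they are not read as a trait of the receptor kinases. The difference within a pair had the smallest possible exact permutation p of 0.0286 in 14 of the 25 pairs, and the lowest adjusted p over the 25 was 0.051. None was under 0.05, but with this smallest p the outcome depends on how many pairs reach it. It therefore decides nothing on a single pair. The pair of FEI1 and FEI2 differed by 0.47, that of AT2G15300 and AT4G34220 by 0.98, and that of BAM2 and BAM1 by 0.13 (exact permutation p = 0.0286, 0.0286 and 0.0857).

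**Figure D4:**
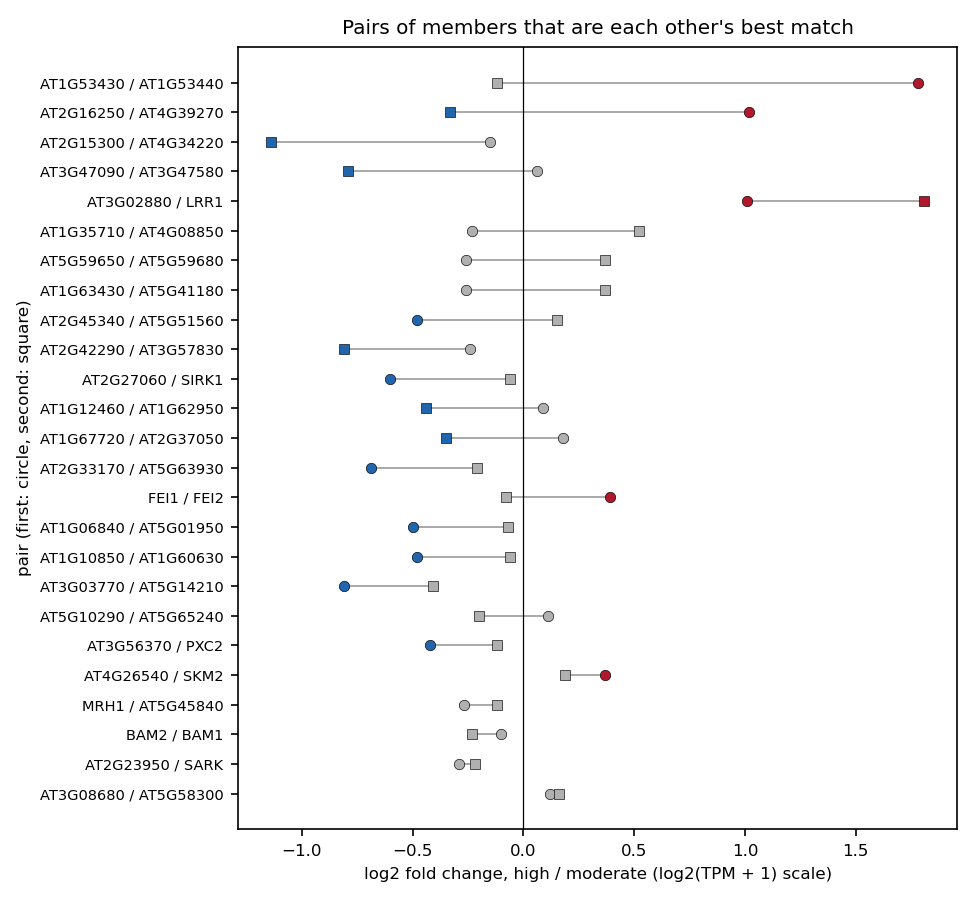
Log2 fold change at high against moderate humidity of both genes in the 25 best-match pairs (circle and square joined by a line), ordered by their difference, with red for genes that rose, blue for genes that fell and grey for genes not called. The widest pair is AT1G53430 (1.78) with AT1G53440 (-0.12), and LRR1 with AT3G02880 is the one pair in which both rose as deposited.

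Some members differed between libraries of 1 condition more than between conditions. In 16 members the SD exceeded 40% of the mean in at least 1 condition. The median over the set was 21.1% for the widest condition. At high against moderate humidity 14 of the 16 were not called, as were 69 of the 112 members and 9449 of all 17368 genes. A wide spread in itself makes a call less likely, so the 14 are no separate result. AT1G51790 was widest, at 7.12, 1.77, 1.04 and 2.79 TPM at high and 0.75, 2.96, 0.24 and 0.58 TPM at moderate humidity. IOS1 (AT1G51800), the neighbouring kinase known from susceptibility to an oomycete, was at 7.02, 1.78, 0.48 and 2.64 TPM at high and 1.15, 1.57, 0.68 and 1.61 TPM at moderate humidity. Of the 16, 12 were highest in low replicate 1, 9 in moderate replicate 2 and 12 in high replicate 1. Over all 112 members these numbers were 85, 47 and 35. Of the 16, 13, 10 and 13 were lowest in replicate 3 of the low, moderate and high condition, against 36, 38 and 34 of the 112. FLS2, SOBIR1 and AT5G25930 are among them, and AT1G35710, the third most abundant member, ranged from 53.83 to 177.14 TPM at low, 61.74 to 136.11 at moderate and 46.32 to 120.34 at high humidity (log2 fold change at high against moderate -0.23 as deposited and 0.01 after scaling, limma adjusted p = 0.647). AT1G29720, also abundant, read 124.76 TPM in low replicate 1 and 78.6 to 79.79 TPM in the other low libraries, and did not pass at high against moderate humidity (-0.37, limma adjusted p = 0.084). The labels give no batch or date for these libraries, and what these libraries share was not tested.

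**Figure D5:**
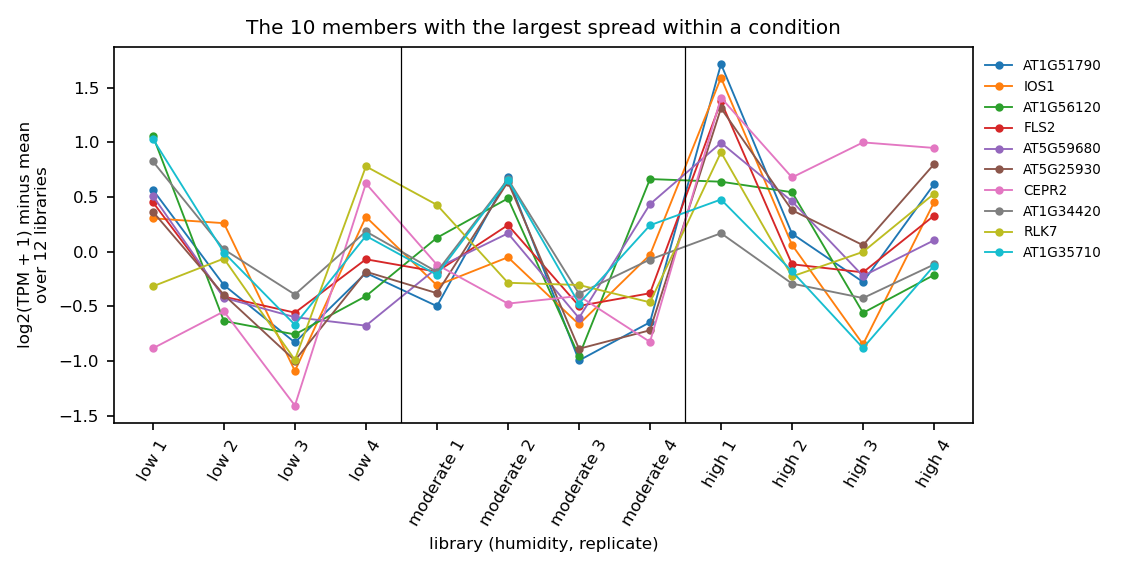
Log2(TPM + 1) minus the mean over 12 libraries for the 10 receptor kinases with the widest spread within a condition, 1 line per gene over the libraries of low, moderate and high humidity. Within their condition all 10 lines peak in high replicate 1, 7 in low replicate 1 and 5 in moderate replicate 2, and 9, 8 and 8 are lowest in replicate 3 of the low, moderate and high condition.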

How the data were processed

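Leaf RNA of 12 libraries, 4 per humidity, was read as 150 bp paired ends. The submitters' processing notes name the tools fastp, HISAT2 and RSEM and the build TAIR10. Not given in the sources used here are tool versions and the handling of strands and shared reads. The authors deposited TPM per gene, in a table titled as raw counts: the values carry decimals and each library sums to between 998920 and 999399. Group means, which the authors gave in 3 further columns, were left aside.

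Genes with at least 1 TPM in at least 4 libraries (17368) entered limma (version 3.58.1, R 4.3.3) as log2(TPM + 1), with an intensity trend, robust moderation, 3 condition means and Benjamini-Hochberg adjustment over all of them. Fold changes on this scale understate the change of low genes. The test was also run on simulated data with independent noise and few changed genes. Those data held no shift of all genes between conditions such as the one seen here, so that run is not used as support. Alternatives were other pseudocounts (0.1, 5), no filter or a minimum of 5 TPM, median-of-ratios scaling, fitting only the 2 groups compared, no trend, the replicate number as a block, and leaving out each library.

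The members, role lists and naming rule were chosen with earlier results of these data known. Named genes are the 12 largest rises and falls at high against moderate humidity without overlap, the 4 largest against low, the 8 most abundant, and up to 4 of each role list by adjusted p, with all SERK and BIR genes. Others, such as AT5G43020, LIK1, SKM1, AT4G39270 and AT1G51790, were chosen after their values were seen. Gene names come from the table or RefSeq (TAIR10.1), which also gave neighbour order and best-match notes. No coordinates or sequences are printed, since the RefSeq assembly at hand differs from the authors' build.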

Additional observations from a re-analysis of the deposited data

Results flagged for a closer look

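Among 135 groups of 4 libraries of the named members, 11 held a library far from its 3 neighbours by Dixon's test at the 95% level, a share to be read against the 1 in 20 that chance gives. Low humidity replicate 1 was high for FEI1 (119.21 TPM against 88.17 to 92.21 in the others), AT3G46370 (6.34 against 3.31 to 3.66), AT1G29720 (124.76 against 78.6 to 79.79) and AT5G63710 (22.27 against 13.74 to 14.94). Low replicate 3 was high for AT3G57830 (5.26 against 2.48 to 2.84) and low for IOS1 (0.25 against 2.19 to 2.32). Moderate replicate 1 was high for AT3G02880 (27.22 against 16.61 to 18.39) and RLK7 (65.07 against 34.62 to 39.32) and low for FEI1 (118.15 against 128.75 to 130.76). Moderate replicate 2 was high for SOBIR1 (116.34 against 49.64 to 58.4), and high replicate 4 for PXY (7.0 against 5.87 to 6.03).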

How the results depend on the processing

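Of 52 named gene results called as deposited, 42 were called in the same direction in every alternative that tested them, which were all 21 for 32 of them and 20 for the 10 that drop out at a minimum of 5 TPM. At high against moderate humidity median-of-ratios scaling gave 29 members higher and 15 lower, and with low replicate 1 also left out, an alternative chosen after seeing the data, 29 and 16. At low against moderate humidity that same alternative gave 1 higher (617 over all genes), and a minimum of 5 TPM gave 1 lower. Leaving out 1 library in turn gave 0 to 36 lower at low against moderate and 6 to 12 lower at high against low humidity. The direction at high against moderate turned after scaling, with the same value without low replicate 1, for SERK2 (0.15), FEI2 (0.14), SERK1 (0.10), HAE (0.10), AT5G63710 (0.02), MPK6 (0.02), AT1G35710 (0.01), HSL1 (0.00) and BRL2 (0.00), none of them called as deposited. Over single libraries left out AT1G35710 ranged from -0.45 to 0.00, SERK1 from -0.09 to 0.02 and HAE from -0.24 to 0.05. The causes were not tested. Correlations of same-numbered deviations ran from -0.319 to 0.241. The same-numbered library was the closest match for replicates 1 and 3 at high against moderate humidity (0.241 and 0.225). It was also the closest for replicate 3 at high against low (0.151), and for no other. Whether a replicate number marks a shared batch is not stated in the labels and cannot be told from these values. The replicate block gave 16 higher and 26 lower at high against moderate, 0 and 0 at low against moderate, and 22 and 10 at high against low humidity. Depth is unknown, so no counting error can be given for members near 1 TPM.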

Other observations

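Further LRR family genes on the role lists are described in the table without one of the words of the rule. Of 30 such genes tested, 6 rose and 7 fell at high against moderate humidity as deposited (20% and 23.3%, against 11.4% and 34.2% of all genes), and 11 rose and 5 fell after scaling (36.7% and 16.7%, against 18.5% and 15%). SRF6 (AT1G53730), of the STRUBBELIG family, went from 14.5 to 76.4 TPM (log2 fold change 2.33, limma adjusted p = 7.7e-08), and SRF3 (AT4G03390) rose by 1.61 (limma adjusted p = 9.5e-06). Of the same family SRF1 (AT2G20850) fell by 0.55 and SRF8 (AT4G22130) by 0.41 (limma adjusted p = 0.0073 and 0.0061), and SRF8 did not pass after scaling. TMK1 (AT1G66150), which acts in auxin signalling, went from 40.1 to 91.0 TPM (1.17, limma adjusted p = 8.9e-06). The antiviral co-receptor NIK1 (AT5G16000) rose by 0.89 while NIK2 (AT3G25560) fell by 1.13, with limma adjusted p of 8.6e-05 and 3.2e-05. NIK3 (AT1G60800) fell by 0.66 (limma adjusted p = 0.011) and did not pass after scaling (adjusted p = 0.106). RPK2 (AT3G02130), of meristem signalling, rose by 0.70 and RPK1 (AT1G69270), linked to ABA responses, fell by 0.80, with limma adjusted p of 1.1e-04 and 0.012. RKL1 (AT1G48480), with a short ectodomain, rose by 0.63 (limma adjusted p = 0.036), a call lost with no filter, with the replicate block and without any 1 of moderate replicates 1, 2 and 3 and high replicates 2, 3 and 4, with an adjusted p of up to 0.096. ERL2 (AT5G07180), of stomatal patterning, fell by 0.95 (limma adjusted p = 3.8e-04), and HSL2 (AT5G65710) by 0.53 (limma adjusted p = 0.0039).

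Among 24 ligand and downstream genes of these receptors 17 were tested, and 2 rose and 2 fell as deposited (11.8% each, against 11.4% and 34.2% of all genes). After scaling 4 rose and 1 fell (23.5% and 5.88%, against 18.5% and 15%). The peptide precursors PSY1 (AT5G58650) and PSK4 (AT3G49780) rose by 1.04 and 0.63 (limma adjusted p = 9.1e-04 and 0.018). PSK5 (AT5G65870) and the cytoplasmic kinase PBL1 (AT3G55450) fell by 0.74 and 0.72 (limma adjusted p = 0.0084 and 0.0070), and PSK5 did not pass after scaling. The MAP kinase kinase MKK4 (AT1G51660) had a log2 fold change of 0.32 (limma adjusted p = 0.066), MPK6 (AT2G43790) one of -0.21 as deposited and 0.02 after scaling (limma adjusted p = 0.095 as deposited), and BIK1 (AT2G39660), a cytoplasmic kinase of the FLS2 complex, one of -0.21 (limma adjusted p = 0.390).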
